A study of Arabidopsis thaliana with 12 samples.

Results

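Roots that overexpress ARABIDILLO-1 were set directly against roots that lack both ARABIDILLO genes, the widest span of ARABIDILLO dose in a series of 12 Affymetrix ATH1 arrays. The comparison used 6 of the 12 arrays, chosen by their titles: 3 of the line labelled ara1OX, which carries 35S:Ara1YFP in the Col-0 background, and 3 of the double mutant labelled ara1/2mut, in the Col-3 background. The other 6 arrays, 3 of Col-0 and 3 of Col-3, were kept out of the test and are given beside the leading genes, because the lines differ in wild-type background as well as in ARABIDILLO dose. All roots came from seedlings of 7 days that had been stratified for 2 days at 4 °C and grown at 24 °C in days of 16 h light and nights of 8 h, on MS medium of 0.5 strength with 1% agar. The 35S promoter is active in most plant cells, so the fusion to yellow fluorescent protein is not limited to the cells that normally express the gene. The labels name neither the number of independent transgenic lines nor whether the replicates were separate cultures, so the p-values reflect sample-to-sample spread that could be technical only.

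ARABIDILLO-1 and ARABIDILLO-2 are F-box proteins, which hand target proteins to a ubiquitin ligase of the SCF type, and they also carry Armadillo repeats, a fold that binds other proteins. In Arabidopsis they promote the formation of lateral roots, the side branches that arise from the pericycle inside the parent root. Auxin starts that process through transcription factors of the LBD family, and wall-loosening enzymes let the new organ pass through the overlying cells. No named probe set of ARABIDILLO-1 or ARABIDILLO-2 was among those matched, so the labels could not be checked by the altered genes. Their levels are not analysed here by name, and probe sets without a gene name may include them.

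PYK10 and NAI2, a beta-glucosidase and its partner in the ER bodies of roots, marked the tissue. PYK10 had a signal of 6418 ± 3090 in ara1OX and 5527 ± 937 in ara1/2mut (SD, n = 3), and NAI2 had 1907 ± 242 and 2258 ± 267. These were the 2 of 5 general root markers with a named probe set. Of the markers of green tissue 2 of 22 were named, and of the root hair markers 3 of 10. None of the endodermis, stele or root cap markers was named. Replicates correlated less well within the altered lines (mean r of an array with its group 0.919 to 0.940 in ara1OX and 0.927 to 0.945 in ara1/2mut) than within Col-0 and Col-3 (0.950 to 0.961). Control transcripts spiked in at hybridization read 5.15 times the median array on ara1OX replicate 3 and 2.16 times on ara1/2mut replicate 2. In ara1/2mut replicate 1 the 3′ to 5′ signal ratio of actin was 25.2, against 7.12 to 17.1 on the other arrays.

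Only 4 of 13648 probe sets differed between ara1OX and ara1/2mut (0.0293%), and all 4 were higher in ara1OX. None was lower (0%) by the limma test at an adjusted p under 0.05, although at an unadjusted p under 0.05 there were 511 lower (3.74%) and 398 higher (2.92%), 909 in all (6.66%) where 682.4 would be expected with no difference. At an unadjusted p under 0.01 there were 205, where 136.48 would be expected. Over all 13648 probe sets the median absolute log2 difference was 0.20 and the median SE 0.24, and 252 differed by more than 1 on the log2 scale. With every ara1OX array above every ara1/2mut array there were 753 probe sets (5.52%), and with every array below there were 1015 (7.44%).

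**Figure D1:**
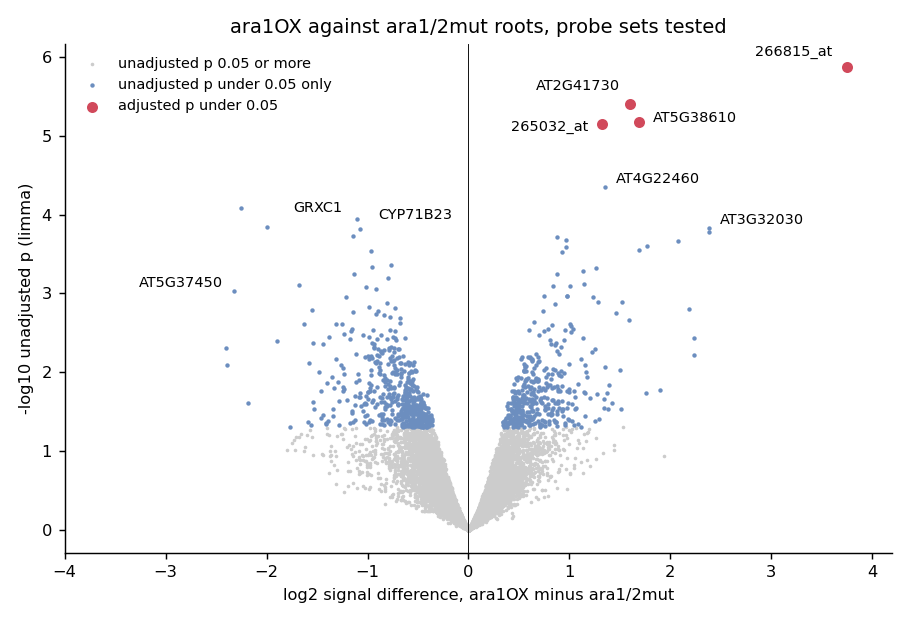
Each point is 1 of the 13648 probe sets, with the log2 signal difference between ara1OX and ara1/2mut on the x axis and -log10 of the unadjusted limma p on the y axis. The 4 red points, all to the right of 0, are the probe sets with an adjusted p under 0.05; the labelled blue points lie below that threshold.

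Probe set 266815_at, which has no gene name here and so could belong to any gene, the altered ones included, rose most. Its signals were 520.0, 389 and 297 in ara1OX and 58.3, 27.5 and 15.5 in ara1/2mut. In Col-0 they were 60.1, 45 and 53.6, and in Col-3 71.9, 77.6 and 51.6, so that all 3 ara1OX arrays stood above the other 9 arrays and both wild types lay between the lines on average. The direct log2 difference was 3.74 (SE 0.40), which is 13.4-fold, with a limma adjusted p of 0.0183. Its size is uncertain, since 1 mutant signal was under 22.3, the mean signal at which probe sets were kept. With a pseudocount of 16 the difference was 3.13. In a fit of all 12 arrays the step from Col-0 to ara1OX was 2.90 and that from Col-3 to ara1/2mut was -1.18. The first made up 77.4% of the direct difference and the second 31.4%, and the wild types added -8.81%.

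AT2G41730 had the smallest p of the named genes. It gave 351, 268 and 369 in ara1OX and 104, 97.9 and 121 in ara1/2mut, with 151, 149.6 and 164 in Col-0 and 124, 99.2 and 141 in Col-3. The lowest ara1OX array was above every other array of the series, and the mutant arrays overlapped those of Col-3. The log2 difference was 1.60 (SE 0.19, 3.04-fold, limma adjusted p 0.0242). The wild types differed in the same direction, with Col-3 minus Col-0 at -0.37 in the 12-array fit, which makes 22.9% of the direct difference a difference between wild types. Its probe set, 260522_x_at, belongs to a class whose probes can also match other transcripts, so the signal of a related gene cannot be told apart from its own.

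AT5G38610 gave 183, 142 and 174 in ara1OX against 43.9, 50.7 and 61 in ara1/2mut. Col-0 had 48.3, 87.6 and 76.9 and Col-3 49.6, 104 and 61.2, so the wild types spread more widely than the mutant and overlapped it, while ara1OX stood apart from all 9. The log2 difference was 1.69 (SE 0.21, 3.22-fold, limma adjusted p 0.0242). Wild-type background added 0.907% of it, the smallest such part in size of the 4.

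Probe set 265032_at, also without a gene name here, was the tightest of the 4. It gave 329, 306 and 339 in ara1OX, 139, 117 and 132 in ara1/2mut, 148, 137 and 119.5 in Col-0 and 161, 142 and 138 in Col-3. Mutant and wild types overlapped, and the log2 difference of 1.33 (SE 0.17, 2.51-fold, limma adjusted p 0.0242) came to 95.9% from the step between Col-0 and ara1OX. For all 4 probe sets this step was the largest of the 3 that add up to the direct difference, and both wild-type means lay between the lines. The steps share the ara1OX and ara1/2mut arrays with the direct comparison, so they describe it and do not test it again. By comparison, every ara1OX array lay above the other 9 arrays in 156 of the 13648 probe sets (1.14%).

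These calls rest on few arrays. Without ara1OX replicate 1, without ara1OX replicate 2 or without ara1/2mut replicate 2 there were 0 calls, without ara1OX replicate 3 or without ara1/2mut replicate 3 there was 1 (266815_at), and without ara1/2mut replicate 1 there were 5. In these fits the log2 differences stayed between 3.29 and 4.24 for 266815_at, 1.51 and 1.75 for AT2G41730, 1.57 and 1.81 for AT5G38610 and 1.26 and 1.38 for 265032_at. In the fit that does not let the variance follow the signal, adjusted p was 0.185 to 0.203 for the 4 and there were 0 calls, with 928 probe sets at an unadjusted p under 0.05, whereas array weights gave 33 calls (13 lower) and the fit of all 12 arrays gave 21 (9 lower).

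**Figure D2:**
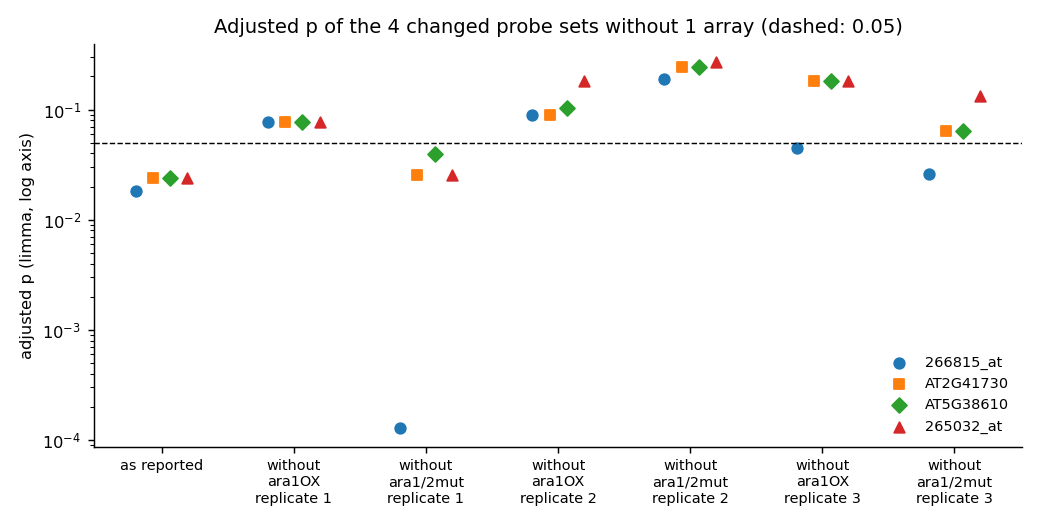
Adjusted limma p (log axis) of the 4 changed probe sets as reported and with each of the 6 arrays left out in turn; the dashed line is 0.05. Only without ara1/2mut replicate 1 do all 4 stay below the line.

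The next named genes in rank were not past the threshold, and 10 of them fill the list of 12 named genes with higher signal in ara1OX (adjusted p 0.122 to 0.393). AT4G22460 came first. It gave 136, 123 and 145 in ara1OX and 44.3, 55.4 and 59.6 in ara1/2mut, with wild types between them (73.3, 91.3 and 77.1 in Col-0, 56.2, 101 and 71.6 in Col-3), a log2 difference of 1.35 (SE 0.21) and a limma adjusted p of 0.122. Its direct difference was shared by both lines, with 55.1% from the step between Col-0 and ara1OX and 36.3% from that between Col-3 and ara1/2mut.

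AT1G21520 gave 42.6, 89.7 and 84.3 in ara1OX, 11.7, 19.8 and 9.77 in ara1/2mut, 14.9, 12.3 and 16 in Col-0 and 19.1, 14.7 and 13 in Col-3, a log2 difference of 2.38 (SE 0.43, limma adjusted p 0.194). All 3 mutant signals were under 22.3, the mean signal at which probe sets were kept, so it was kept through the ara1OX arrays and the size of its difference is uncertain: with a pseudocount of 16 it was 1.53. AT5G07570 was similar in pattern, at 214, 183 and 153 in ara1OX and 82.3, 43.9 and 22.3 in ara1/2mut, with 61.7, 72.4 and 44 in Col-0 and 65.1, 83.6 and 47.6 in Col-3 (log2 2.07, SE 0.39, limma adjusted p 0.194). With the pseudocount the difference of AT5G07570 was 1.70. In both genes ara1OX stood above the other 9 arrays and the mutant overlapped its wild type.

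AT3G32030 showed the opposite make-up, as read from a probe set of a class that can match several transcripts. Its signals were 61.5, 126 and 175 in ara1OX and 13, 31.5 and 23.4 in ara1/2mut, against 57.1, 77.8 and 101 in Col-0 and 44.9, 42.4 and 68.7 in Col-3. Here the 3 mutant arrays lay below the other 9, which held for 42 of 13648 probe sets (0.308%), while ara1OX overlapped both wild types. The log2 difference was 2.39 (SE 0.42, limma adjusted p 0.194), with 52.8% from the step between Col-3 and the mutant and 22.3% from that between Col-0 and ara1OX. AT3G02640 was likewise divided in favour of the mutant, at 147, 153 and 110.4 in ara1OX and 44.9, 63.3 and 79.7 in ara1/2mut against 68.5, 93.2 and 118 in Col-0 and 112, 77.2 and 117 in Col-3 (log2 1.15, SE 0.25, limma adjusted p 0.355).

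In AT5G54370 and AT4G25250 the wild types differed in the direction of the lines. AT5G54370 gave 243, 275 and 245 in ara1OX and 117, 159 and 152 in ara1/2mut, but Col-0 had 173, 242 and 235 and Col-3 147, 149.6 and 167, so 56.1% of its log2 difference of 0.84 was a difference between the backgrounds. For AT4G25250 (86.6, 98.1 and 88 in ara1OX, 45.6, 40.1 and 50.9 in ara1/2mut) that share was 52.2%, with Col-0 at 54.7, 96.9 and 47.8 and Col-3 at 65, 25.4 and 51.7. Neither gene passed the limma test (adjusted p 0.355 for both).

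AT3G58550 was at 1376, 1598 and 2082 in ara1OX, 836, 909.8 and 807 in ara1/2mut, 899, 1258 and 1028 in Col-0 and 1095, 1121 and 1291 in Col-3, with both wild types between the lines and a log2 difference of 0.97 (SE 0.18, limma adjusted p 0.202). AT5G26731 gave 94, 86 and 92 in ara1OX and 48.3, 38.5 and 52.1 in ara1/2mut, while the wild types spread over both lines (39.5, 86.4 and 76.9 in Col-0, 43.9, 84.4 and 67.5 in Col-3). AT5G16010 gave 487, 406 and 532 and 276, 308 and 258, and there the mutant mean was itself above that of Col-3 (195, 216 and 249), so both lines stood above their wild types on average. The log2 differences of these last 2 were 0.98 and 0.75, each with a limma adjusted p of 0.393.

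No gene was called lower in ara1OX, and the 12 named genes that lead that direction had limma adjusted p-values of 0.194 to 0.544. GRXC1 (AT5G63030), a glutaredoxin that reduces disulfides with glutathione, was first. It gave 149, 121 and 113 in ara1OX and 303, 289.6 and 232 in ara1/2mut, with 229, 253 and 187 in Col-0 and 173, 232 and 192 in Col-3. All 3 ara1OX arrays were below the other 9 (217 of 13648 probe sets, 1.59%), and the mutant mean was above Col-3. The log2 difference was -1.11 (SE 0.19, 2.15-fold lower, limma adjusted p 0.194), with 72.6% from the step between Col-0 and ara1OX and 42.5% from that between Col-3 and ara1/2mut.

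CYP71B23 (AT3G26210), a cytochrome P450 monooxygenase, gave 163, 147 and 181 in ara1OX and 405, 354 and 279 in ara1/2mut, against 343, 363 and 240.0 in Col-0 and 306, 310.5 and 314 in Col-3. The mutant and both wild types overlapped and ara1OX lay below all 9 (log2 -1.07, SE 0.19, limma adjusted p 0.194). UGT72E1 (AT3G50740), a glucosyltransferase acting on monolignol-type phenylpropanoids, had the same layout, with 442, 633 and 704 in ara1OX, 1007, 1016 and 1307 in ara1/2mut, 1430.3, 1043 and 1081 in Col-0 and 1129, 1137 and 1146 in Col-3 (log2 -0.92, SE 0.20, limma adjusted p 0.367). AT5G37450 was at 8.82, 33.6 and 8.59 in ara1OX, with replicate 2 above the other replicates, against 86.6, 66.7 and 54.8 in ara1/2mut, 103, 71.7 and 39.5 in Col-0 and 69.1, 92.6 and 68.8 in Col-3. Its log2 difference was -2.32 (SE 0.52, limma adjusted p 0.372), but 2 of the 3 ara1OX signals were under the 22.3 of the filter, and with a pseudocount of 16 it was -1.44.

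GH3.17 (AT1G28130), an enzyme that joins auxin to amino acids, gave 525, 524 and 582 in ara1OX and 806, 1051 and 783 in ara1/2mut. Col-0 had 783, 526 and 619, overlapping ara1OX, and Col-3 had 726, 744 and 814, so that 38.3% of the log2 difference of -0.68 lay between the wild types (SE 0.17, limma adjusted p 0.511). It was the only one of the 12 in which the backgrounds made the largest part.

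The neighbouring genes AT5G45500 and AT5G45510, adjacent in the gene order of chromosome 5, both appear among the 12. AT5G45500 gave 576, 503 and 563 in ara1OX, 991, 952 and 858 in ara1/2mut, 856, 740.4 and 680.1 in Col-0 and 845, 890.4 and 937 in Col-3. AT5G45510 gave 762, 848 and 613, 1076, 1199 and 1264, 1171, 1019 and 894 and 1074, 1220.0 and 971 in the same order of groups. In both, ara1OX lay below the other 9 arrays, with log2 differences of -0.77 (SE 0.16, limma adjusted p 0.279) and -0.68 (SE 0.17, limma adjusted p 0.544). They were the only adjacent pair among the 24 named genes of both directions.

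AT1G22660 gave 15.1, 13.3 and 25.2 in ara1OX and 49.9, 59 and 55.9 in ara1/2mut, with both wild types between (39.5, 27 and 41.5 and 42.7, 37.7 and 45.4, log2 -1.68, SE 0.37, limma adjusted p 0.355). Here too 2 ara1OX signals were under 22.3, and with the pseudocount the difference was -1.08. AT5G05400 gave 110.0, 93.2 and 97.1 and 221, 208 and 159, and Col-3, at 248, 234 and 173, was as high as the mutant. AT2G24240 gave 56.7, 79.7 and 63.7 and 152, 119 and 106, and AT2G35920 gave 87.4, 84.6 and 82.3 and 173, 133 and 143, again with wild-type means between the lines. The last of the 12, psbL, is plastid-encoded and is described with the other plastid genes.

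The unnamed probe sets of smallest p in the lower direction were 258380_at and 251407_at. Probe set 258380_at gave 15.7, 11.3 and 10.5 in ara1OX and 52.3, 63.4 and 61.3 in ara1/2mut, against 30.3, 16.5 and 14 in Col-0 and 26.2, 26.8 and 28.7 in Col-3 (log2 -2.25, SE 0.37, limma adjusted p 0.188). Probe set 251407_at gave 62.3, 46.8 and 23.4 and 130.3, 141 and 234, against 72.7, 58.5 and 62.9 and 78.6, 51.1 and 54.9 (log2 -1.99, SE 0.35, limma adjusted p 0.194). All 3 ara1OX signals of 258380_at were under 22.3, so it was kept through the mutant arrays, and with a pseudocount of 16 its difference was -1.40. In both, the 3 mutant arrays stood above the other 9 (75 of 13648 probe sets, 0.55%), and the step from Col-3 to the mutant was the largest part.

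Over the 24 named genes, 12 in each direction, both wild-type means lay between the lines in 19. The step between Col-0 and ara1OX was the largest part in 19, that between Col-3 and the mutant in 2, and the wild-type difference in 3. In 16 genes ara1OX lay beyond all 9 other arrays and in 2 the mutant did. The genes were chosen for a direct difference, so these counts describe them and say nothing of probe sets in general.

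**Figure D3:**
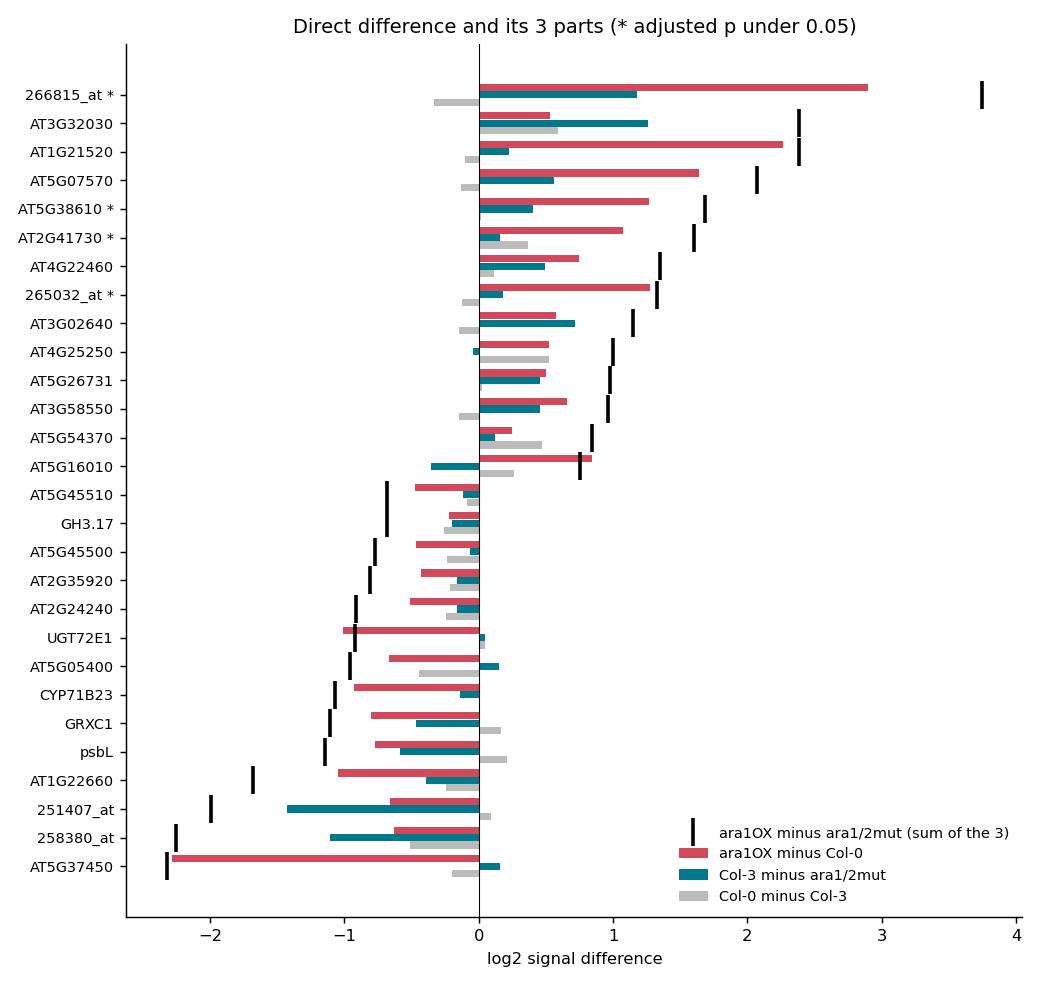
For the 24 named genes and the 4 leading unnamed probe sets, coloured bars give the 3 log2 steps from the fit of all 12 arrays (ara1OX minus Col-0 in red, Col-3 minus ara1/2mut in blue-green, Col-0 minus Col-3 in grey) and the black tick gives their sum, the direct difference. Red is the longest bar in most rows; AT3G32030, AT3G02640, 258380_at and 251407_at are led by the mutant step.

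Gene families were counted at an unadjusted p under 0.05, since 0 members of any list passed the adjusted threshold. The counts are read against the 2.92% of all probe sets that were higher and the 3.74% that were lower, and the medians against the overall median log2 difference of -0.03. No list was tested. At that p 33 list members were examined individually. The difference between the wild types made up over 50% of the direct difference in 8 of them. These were XTH18, TUB1, GSTL3, ndhC, scpl40 and 3 of the extensin set (HRGP1, AT1G23720 and AT4G08410). In 11 of the 33 the wild-type part was below 0, opposite in sign to the direct difference.

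The ARABIDILLO proteins belong to the ubiquitin and Armadillo repeat families, which were counted first. Of 3 F-box or SCF genes kept, 0 reached that p. SKP2A, an F-box protein of cell cycle control, gave 55.3, 62.4 and 56.8 in ara1OX and 117, 66.1 and 59.7 in ara1/2mut, a log2 difference of -0.41 (SE 0.28, limma adjusted p 0.801), with 1 high mutant array, without which (ara1/2mut replicate 1) it was -0.11. CUL4, the scaffold of another class of ubiquitin ligase, gave 322, 429.8 and 427 and 330.1, 442 and 416 (log2 -0.01, SE 0.19), with almost the same range in both lines. Of 6 plant U-box ligases kept in the Armadillo repeat list, 2 were lower. That list was made by gene name, so a member such as PUB49 need not carry the repeats. PUB23, which with PUB22 restrains drought and immune signalling, gave 111, 106 and 150.1 in ara1OX and 174, 209 and 169 in ara1/2mut, against 178, 198 and 143 in Col-0 and 152, 167 and 174 in Col-3 (log2 -0.60, SE 0.20, limma adjusted p 0.692). PUB22 gave 141, 196 and 140.0 and 252, 219 and 194, overlapping by 1 array, against 243, 255 and 162 in Col-0 and 178, 196 and 224 in Col-3, with a log2 difference of -0.49 (SE 0.20, limma adjusted p 0.721). Their close relative PUB24 had a difference above 0, at 103, 121 and 101 and 110.2, 78.7 and 84 (log2 0.27, SE 0.21). Of 24 ubiquitin-conjugating enzymes and ubiquitin proteases, 0 reached the unadjusted threshold.

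Lateral root regulators had overlapping signals in the lines. LBD16, which acts downstream of auxin in founder cells, gave 65, 62.8 and 88.7 in ara1OX and 69.5, 55.7 and 78.1 in ara1/2mut (log2 0.09, SE 0.24). LBD29 gave 29.2, 21.1 and 66.6 and 32.7, 20.5 and 29, where only ara1OX replicate 3 was high (log2 0.36, SE 0.46). PUCHI, which shapes the early primordium, gave 37.1, 23.3 and 28.2 and 42.7, 18.3 and 25.2 (log2 0.10, SE 0.42). None of the 3 reached an unadjusted p under 0.05. Without ara1OX replicate 3 the log2 differences of LBD16 and LBD29 were below 0, at -0.072 and -0.12, and that of PUCHI was -0.18 without ara1/2mut replicate 2.

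Of 5 auxin genes kept, GH3.17 was lower, as described above, and IAA31 was higher. IAA31, a repressor of auxin responses, gave 48.6, 55.1 and 54.9 in ara1OX and 32.4, 17.2 and 42.6 in ara1/2mut (log2 0.88, SE 0.36, limma adjusted p 0.73), while Col-0, at 21.1, 46.8 and 48.1, spread from the mutant's range to just under ara1OX. The difference of IAA31 was 0.51 without ara1/2mut replicate 2. GH3.3, an auxin-conjugating relative of GH3.17 with the opposite sign, gave 200.3, 142 and 316 and 120.4, 82.6 and 225, with overlap (log2 0.67, SE 0.36), and 189, 150.3 and 138 in Col-0 and 111, 87 and 199 in Col-3. Its difference was 0.34 without ara1/2mut replicate 2, 0.37 without ara1OX replicate 3 and 1.06 without ara1/2mut replicate 3. The gibberellin receptors GID1A, GID1C and GID1B all had differences below 0, at -0.75 (SE 0.36), -0.39 (SE 0.24) and -0.10 (SE 0.18), and 0 of the 3 reached the unadjusted threshold. GID1A gave 58.2, 93.3 and 31 in ara1OX and 119.9, 72 and 93.1 in ara1/2mut, and its difference was -0.34 without ara1OX replicate 3 and -1.13 without ara1OX replicate 2. EIN3, the transcription factor of ethylene responses, gave 505, 513 and 468 and 621, 440.4 and 493. Of 4 cytokinin and ethylene genes and 10 jasmonate and defence genes, 0 reached it either.

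Wall-loosening enzymes were mixed. Of 11 expansins, which loosen walls during growth, EXPB1 was higher at 133, 114 and 110.2 in ara1OX and 77.7, 66.1 and 88 in ara1/2mut, against 76.1, 80.1 and 108 in Col-0 and 83.7, 79.1 and 54.7 in Col-3 (log2 0.63, SE 0.20, limma adjusted p 0.657). EXPB2 was lower at 22.1, 18.9 and 43.1 and 43.2, 52.8 and 49.4 (log2 -0.88, SE 0.37, limma adjusted p 0.731), with 2 ara1OX signals under 22.3 and a difference of -0.59 with the pseudocount. The largest value, 1.45 for EXPA8 (singled out after its values were seen), had an SE of 0.76, with the mutant arrays at 48.7, 4.33 and 32.3. Of 7 xyloglucan endotransglucosylases, which cut and rejoin wall xyloglucan, XTH18 was higher (558, 548 and 652 in ara1OX, 369.7, 496 and 413 in ara1/2mut, log2 0.47, SE 0.17, limma adjusted p 0.711) and XTH32 lower (33, 37.7 and 40 and 54.2, 83.7 and 76.7, log2 -0.93, SE 0.27, limma adjusted p 0.623). For XTH18 Col-3 minus Col-0 was -0.55 on the log2 scale, larger in size than the direct difference. XTH32 was at 54.8, 54.7 and 58.1 in Col-0 and 58.4, 39.7 and 64.3 in Col-3. Of 17 TBL genes, whose family acetylates wall polymers, TBL25 was lower (134, 129.6 and 95.8 and 166, 173 and 187, log2 -0.56, SE 0.19). Of 6 cellulose synthase-like genes, 6 GH9 endoglucanases and 3 class III peroxidases, 0 reached the unadjusted threshold.

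A set of 9 genes that an earlier treatment of these data had grouped as extensins, structural wall glycoproteins, had a median log2 difference of 0.49, and 3 of the 9 were higher at an unadjusted p under 0.05. All 3 have probe sets of the class marked x, which can match other transcripts, and 0 of the 5 members outside the x and s classes reached that p. The set had been picked because of its behaviour on these arrays, so the count is no independent evidence. HRGP1 (AT3G54590), the member with a gene name, gave 1828, 2266 and 3216 in ara1OX and 1461, 1721 and 1788 in ara1/2mut, with 1572, 1471 and 1943 in Col-0 and 639, 1117 and 1083 in Col-3 (log2 0.52, SE 0.21, limma adjusted p 0.721). AT1G23720 gave 1005, 1273 and 1674 and 767, 850.3 and 819.8, with 925, 976 and 1045 in Col-0 and 374, 677 and 581 in Col-3 (log2 0.67, SE 0.20, limma adjusted p 0.645). The direct comparison hides an opposite arrangement of the parts: against their own wild types the set's medians were 0.52 in ara1OX and 0.97 in ara1/2mut, both above 0, and the median of Col-3 minus Col-0 was -0.89. Both lines thus stood above their own backgrounds, and the direct difference had the sign of the wild-type difference. The set's direct median was 0.20 without ara1OX replicate 3 and 0.25 without ara1/2mut replicate 1, and 0.36 over those 5 members. HRGP1 alone was at 0.30 without ara1OX replicate 3.

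The named root hair markers lay in the same direction. The summed signal of EXPA7, EXPA18 and XTH26 was 550.3 to 637 in ara1OX and 404 to 544 in ara1/2mut, against 435 to 562 in Col-0 and 353 to 454 in Col-3. The sums of the lines were thus narrowly apart, as were the signals of 5.52% of all probe sets with ara1OX above. EXPA7 alone overlapped, at 291, 266 and 255 in ara1OX and 208, 198 and 265 in ara1/2mut (log2 0.28, SE 0.18, limma adjusted p 0.789). EXPA18, a root hair expansin, gave 344, 263 and 318 in ara1OX and 247, 203 and 261 in ara1/2mut (log2 0.38, SE 0.18, limma adjusted p 0.772). It gave 227, 238 and 318 in Col-0 and 207, 187 and 207 in Col-3, so 96.7% of its difference lay between the wild types. In the 12-array fit both lines stood above their own wild types, ara1OX by log2 0.25 and ara1/2mut by 0.24. These steps nearly offset each other in the direct difference. XTH26 did not pass the filter on signal. The part of these markers in the result was not tested, and in whole roots a change in the number of cells of a type and a change in the RNA per cell cannot be told apart.

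UDP-glycosyltransferases, which attach sugars to hormones and phenylpropanoids, mostly had differences below 0. Of 28 kept, 4 were lower and 0 higher at an unadjusted p under 0.05, 21 of the 28 had a difference below 0 (54.2% of all probe sets did), and the median was -0.11 (-0.18 without ara1/2mut replicate 1). Against their own wild types the medians were -0.0060 in ara1OX and -0.032 in ara1/2mut, while that of Col-3 minus Col-0 was 0.16, the largest in size of these 3. The UGT72E genes, whose products glucosylate monolignols and related aldehydes, made up 3 of the 4. UGT72E3 gave 20.3, 34.8 and 14.3 in ara1OX and 40.4, 61.3 and 54.5 in ara1/2mut, with 54.4, 57.9 and 61.5 in Col-0 and 66.3, 59.3 and 69.5 in Col-3 (log2 -1.25, SE 0.39, limma adjusted p 0.657), with 2 ara1OX signals under 22.3 and a difference of -0.82 with the pseudocount. UGT72E2, named after its values were seen, gave 671, 663 and 686 and 964, 846 and 803, with 905, 776 and 999 in Col-0 and 876, 792 and 811 in Col-3 (log2 -0.37, SE 0.16, limma adjusted p 0.742). With UGT72E1 above, all 3 had ara1OX below the other 9 arrays, a position taken by 1.59% of all probe sets; related sequences may share probes, and the 3 are not independent.

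Among 14 glutathione transferases and glutaredoxins, 2 were higher and 3 lower. GSTU28 gave 139.9, 172 and 241 in ara1OX and 63.9, 93.1 and 118 in ara1/2mut, against 98, 152 and 106 in Col-0 and 139.5, 75.7 and 129 in Col-3 (log2 1.01, SE 0.27, limma adjusted p 0.558). GSTL3 gave 249.6, 207 and 181 and 331, 262 and 269.8 (log2 -0.44, SE 0.19, limma adjusted p 0.742), but Col-0 was at 194, 194 and 162 and Col-3 at 244, 249.8 and 248, so both lines were above their own wild types on average. Of 8 cytochromes P450, CYP71B23 alone reached the unadjusted threshold, and 6 of the 8 had a difference below 0.

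Plastid-encoded genes, which non-green root plastids transcribe at low levels, mostly had differences below 0. Of 49 kept, 4 were lower and 0 higher at an unadjusted p under 0.05 (8.16% lower, against 3.74% of all probe sets), 40 had a difference below 0 (54.2% of all probe sets did), and the median was -0.34. Against their own wild types the medians were -0.19 in ara1OX and 0.27 in ara1/2mut, and that of Col-3 minus Col-0 was -0.094. psbL, a small subunit of photosystem II, gave 39.7, 33.5 and 24.4 in ara1OX and 69.4, 80.1 and 63.3 in ara1/2mut, with 80.2, 51.1 and 39.5 in Col-0 and 44.8, 45.3 and 51 in Col-3 (log2 -1.14, SE 0.28, limma adjusted p 0.471). rpl20, a plastid ribosomal protein, gave 14.1, 19.4 and 24 and 31.7, 79.2 and 31.5, with 49, 30 and 23.9 in Col-0 and 22.9, 39.7 and 50.6 in Col-3 (log2 -1.20, SE 0.45, limma adjusted p 0.711). Its difference was -0.76 without ara1/2mut replicate 2, and -0.78 with the pseudocount. ndhC, a subunit of the plastid NDH complex, gave 31.3, 44.4 and 65.5 and 42, 166 and 144, with overlap (log2 -1.15, SE 0.47, -1.78 without ara1/2mut replicate 1). Col-0 was at 71.5, 42.9 and 54.1 and Col-3 at 134, 47.7 and 193, so 83.5% of the difference of ndhC lay between the wild types. The gene clpP, a protease subunit named after its values were seen, gave 302, 758 and 1056 and 1115, 2138 and 886, also with overlap.

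Averaged over the 49 genes, log2 signal was 6.72 ± 0.23 in ara1OX and 7.11 ± 0.47 in ara1/2mut (SD, n = 3), with 6.91 ± 0.37 in Col-0 and 6.79 ± 0.17 in Col-3. The groups overlapped. The median stayed below 0 with each array left out, but it was -0.079 without ara1/2mut replicate 2 and -0.50 without ara1/2mut replicate 1. Plastid genes share 1 genome and long transcripts, so they are not independent. The green tissue markers RCA and LHCB4.1, 2 of 22 listed, summed to 170.3 to 230.2 in ara1OX and 186 to 339 in ara1/2mut, with the highest value in ara1/2mut replicate 1. Of 7 nuclear photosynthesis genes 0 reached the unadjusted threshold. The part of green tissue in these values was not tested.

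Of 8 tubulin and actin genes, TUA1 was lower (71.7, 48.7 and 70.7 in ara1OX, 94.9, 112 and 84.3 in ara1/2mut, log2 -0.62, SE 0.23, limma adjusted p 0.711) and TUB1 higher (356, 371 and 306 and 251, 225 and 291, log2 0.43, SE 0.17, limma adjusted p 0.72). For TUB1, at 289, 291 and 331 in Col-0 and 214, 233 and 291 in Col-3, 72.5% of the difference lay between the wild types. TUA6 was higher with overlap (1144, 1224 and 1413 and 681, 967 and 1153, log2 0.46, SE 0.21, 0.25 without ara1/2mut replicate 1). Of 6 histone genes, the linker histone HIS1-3, known for its induction by drought, was higher at 107, 77 and 127 in ara1OX and 58.4, 61.4 and 47.9 in ara1/2mut, against 48.7, 99.3 and 58.4 in Col-0 and 51.8, 83.3 and 68.8 in Col-3 (log2 0.87, SE 0.24, limma adjusted p 0.608). In the cold and dehydration list 1 of 7 was higher: AT2G46140, the late embryogenesis abundant protein LEA27, gave 337, 382 and 428 and 239, 246 and 339.9 (log2 0.49, SE 0.19, limma adjusted p 0.711). Of 7 nitrogen genes and 3 iron and zinc genes, 0 reached the unadjusted threshold.

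The remaining families were compiled after the platform's names were known. Of 10 serine carboxypeptidase-like genes scpl20 (245, 256 and 281 in ara1OX, 115, 172 and 217 in ara1/2mut) and scpl40 were higher, with log2 differences of 0.68 (SE 0.23) and 0.76 (SE 0.34). The first was 0.43 without ara1/2mut replicate 1. For scpl40 (51.6, 36.1 and 41.5 and 24.9, 20.1 and 31.8, with 25.8, 42.8 and 39.8 in Col-0 and 38.4, 16.8 and 23.2 in Col-3) 67.9% lay between the wild types. For scpl20 both wild-type means were above that of ara1OX (332, 245 and 278 in Col-0, 313, 300.5 and 319 in Col-3), which leaves the mutant as the line apart. Of 7 AGAMOUS-LIKE MADS-box genes AGL42 was higher (137, 105 and 113 and 79.6, 95.8 and 70.8) and AT1G30260 lower (68.2, 106 and 105 and 178, 136 and 115). SWEET2, a vacuolar sugar transporter of roots, gave 228, 224 and 285 and 158, 203 and 189.7, with 154, 199.6 and 132 in Col-0 and 176, 233 and 229.5 in Col-3 (log2 0.42, SE 0.19), and IQD23, a calmodulin-binding IQ-domain protein, gave 110.2, 70.6 and 88.3 and 49.3, 67 and 65.1 (log2 0.56, SE 0.24). Of 7 beta-glucosidases, 8 tetraspanins, 6 RALF-like peptides, 5 subtilases and 4 vacuolar processing enzymes and aspartic proteases, 0 reached the unadjusted threshold.

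**Figure D4:**
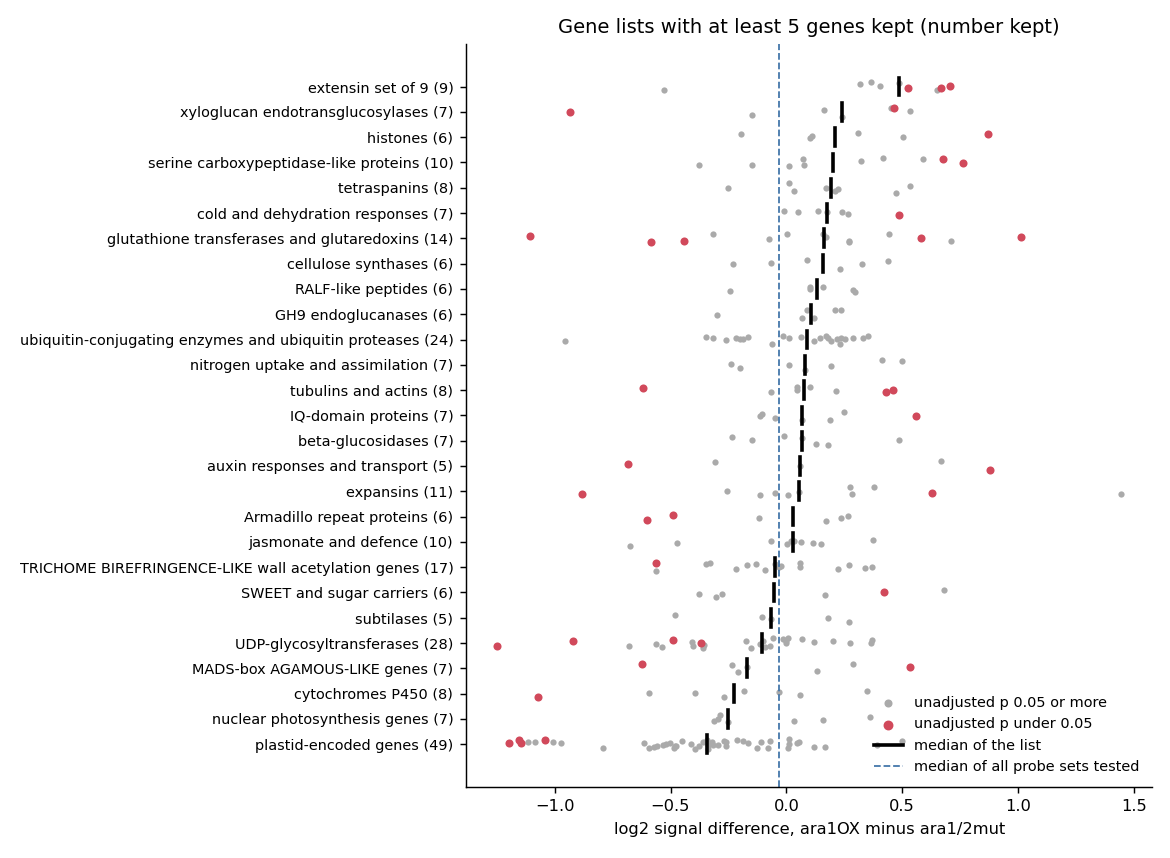
Log2 signal difference (ara1OX minus ara1/2mut) of every gene kept in each list with at least 5 genes, with the number kept in brackets; red points have an unadjusted limma p under 0.05, black bars are list medians and the dashed line is the median of all probe sets, -0.03. The plastid-encoded genes sit lowest with a median of -0.34 and the extensin set highest with 0.49, and most lists are centred near the dashed line.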

How the data were processed

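Expression was measured in roots with 1 ATH1 array per sample, in 4 groups of 3. The authors deposited linear intensities; the submitters' processing notes name MAS5, whose version is not given in the sources used here. Each array had a mean of 100 after trimming 2% of values at each end, so the values had been scaled per array, which hides any shift common to all transcripts. Detection calls were not used.

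Log2 signal was analysed without further normalization. Of 22810 probe sets 64 controls were left out, and those with a mean log2 signal over the 6 arrays no lower than the 40th percentile (4.48, or 22.3 as signal) were kept, 13648 in all. The 6 arrays were fitted with limma 3.58.1 (R 4.3.3), with variances following the trend with signal, 4 residual and 7.14 prior degrees of freedom, two-sided tests and Benjamini-Hochberg adjustment over all 13648; an adjusted p under 0.05 counted as changed. Wild-type steps came from a fit of all 12 arrays. The number of arrays limits the precision: an exact permutation test of 3 against 3 cannot go below 0.1.

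Of 14016 probe sets in the platform's annotation 13513 had 1 gene and 503 had several; 13436 matched 13286 genes of TAIR10.1, used for names and gene order only; 8730 had no entry. Named genes were all called probe sets, named genes of smallest p with no overlap up to 12 per direction, 2 unnamed probe sets per direction, and up to 3 members of smallest p of each list with at least 3 genes kept. Members of lists compiled later, the 9 extensins, EXPA7, UGT72E2, clpP and EXPA8 fall outside that rule. The members, lists and tests were chosen with earlier results of these data known. On simulated data of 13648 probe sets the test found 28% of 100 planted differences of log2 1 and 71% of 100 of log2 2, made 6 false calls, and made 0 calls when nothing was changed. Alternatives were other normalizations, filters, a pseudocount of 16, other variance models, array weights, the spiked-in control level as a covariate, all 12 arrays, a replicate block and each array left out. The labels do not say that a number marks a shared culture, so the numbers were not treated as pairs. Deviations from the group means correlated at r 0.343, 0.0392 and 0.18 for same-numbered arrays of the lines. For differently numbered arrays r was -0.279 to 0.184. Deviations from a group mean cancel out over its arrays, so these values are not independent of those for same-numbered arrays. A shared replicate structure remains possible. The replicate block, which allows for it, gave 65 calls.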

Additional observations from a re-analysis of the deposited data

How the results depend on the processing

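The count of 4 changed probe sets, all higher, was the same under quantile normalization, median centring, no filter, the stricter filter, the filter on the highest group mean, a pseudocount of 16 and the spiked-in control level as a covariate. It was 0 without the variance trend and 0 without the trend with a robust prior, where 928 and 927 probe sets had an unadjusted p under 0.05, 1 without moderation (not one of the 4), 33 with array weights (20 higher, 13 lower), 21 with all 12 arrays in the fit (12 higher, 9 lower) and 65 with a replicate block (42 higher, 23 lower); the cause was not tested. The 4 were among the calls with array weights, with all 12 arrays and with the replicate block. With 1 array left out in turn it ranged from 0 to 5, all higher, and the count of lower calls stayed at 0. 266815_at passed in 13 of the 19 alternatives and the other 3 probe sets in 11 each. Of the list medians 15 of 34 kept their sign throughout.

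In 14 genes of small difference the sign turned under some alternatives; the cause was not tested. With array weights the log2 difference was 0.14 for PSAN, -0.11 for AT5G64120 and 0.069 for EIN3 and -0.24 for BHLH101, under quantile normalization it was 0.0038 for SK18 and -0.071 for BHLH101, and with a pseudocount of 16 it was -0.074 for BHLH101. With 1 array left out in turn it ranged from -0.14 to 0.91 for CSLA03, -0.64 to 0.17 for LHCB4.1, -0.12 to 0.71 for LBD29, -0.084 to 0.32 for AT5G64120, -0.076 to 0.30 for ZIP6, -0.072 to 0.20 for LBD16, -0.085 to 0.37 for ETP2, -0.16 to 0.088 for EIN3, -0.18 to 0.43 for PUCHI, -0.37 to 0.11 for ZIP9, -0.39 to 0.19 for SK18, -0.71 to 0.44 for BHLH101 and -0.14 to 0.13 for CUL4.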

Other observations

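Probe sets without a gene name made up 6312 of the 13648 tested, so a large share of what separates the lines cannot be named here. By chromosome, the share of named probe sets with an unadjusted limma p under 0.05 was 6.49% on chromosome 1, 7.36% on chromosome 2, 6.92% on chromosome 3, 6.43% on chromosome 4 and 7.11% on chromosome 5, close to the 6.66% over all probe sets, and 8.16% on the plastid genome (4 of 49). Array weights estimated from the same 6 arrays gave ara1OX replicate 2 the most weight (2.64) and ara1/2mut replicate 1 the least (0.503).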
